A study of Mus musculus with 6 samples.

Results

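The genes described here are those of blood coagulation and fibrinolysis in mouse liver. A list of 37 genes was taken, from the clotting factors and their inhibitors to the plasminogen system and the vitamin K cycle. Each gene was represented by the probe set that is annotated with its symbol alone, and by the one of highest mean where there were several. Of the 37 genes, 35 had such a probe set, among 19550 genes measured in all. Klkb1, which encodes plasma prekallikrein, lay only on a probe set shared with Cyp4v3 and was dropped, and Cpb2 was not analysed here. A filter on dim genes, at the 25th percentile of the mean value, kept 31 of the 35 and 14662 of all genes for testing. The 4 below it were F13a1, Serpina5, Plau and Plat.

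RNA came from livers of male mice of the C57BL/6NCrSlc background in 3 groups of 2 arrays. AA-deficient knockouts lacked SMP30/GNL and ate a diet deficient in ascorbic acid (AA, vitamin C), with no supplement stated. AA-supplemented knockouts lacked the same gene and drank water with AA and EDTA, a stabiliser, in an amount that keeps tissue AA at normal levels. Wild-type mice, on the same AA-deficient diet, drank water without the vitamin. SMP30/GNL, encoded by Rgn, is a gluconolactonase of AA synthesis in mice. Ages, the deleted part of Rgn and any EDTA in the other groups' water were not given in the labels. The labels do not tie the arrays of a group to separate animals, and the p-values therefore cover only the spread among these samples, possibly a technical one.

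Clotting is a cascade in which each protease activates the next. Tissue factor with factor VII starts it, factors VIII, IX and XI amplify it, and factor X with its cofactor, factor V, turns prothrombin into thrombin, which cuts fibrinogen to fibrin. Antithrombin, heparin cofactor II, tissue factor pathway inhibitor, the protein C system and the protein Z system restrain it, and plasmin dissolves the clot. Hepatocytes secrete most of these proteins, while liver endothelial cells are the main source of factor VIII and also express von Willebrand factor, thrombomodulin and the endothelial protein C receptor. Several of the factors need carboxylation by the vitamin K cycle, which does not use vitamin C.

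Values are the deposited log values, read as log10, and differences are in the same units with their standard error (SE). A difference of 0.05 is then a 1.12-fold change. Folds hold on the log10 reading, and would be smaller on a smaller log base. Levels of different probe sets cannot be set against each other, since probes differ in brightness. Correlations between arrays over all probe sets with a value were 0.97 to 0.98 within groups and 0.95 to 0.97 between groups. Rgn was at 0.23 and 0.30 in AA-deficient knockouts and at 0.34 and 0.14 in AA-supplemented knockouts, against 2.07 and 1.996 in wild type. All 10 hepatocyte markers with a value were bright, with means of 1.56 to 2.29.

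AA-supplemented array 2 stood above array 1 in the bright coagulation genes, and in most other bright genes. For 20 of the 20 coagulation genes at or above the 95th percentile of mean value, array 2 of the AA-supplemented knockouts was higher than array 1, with a median of 0.098. Among all 978 genes of that brightness 78.3% were higher, with a median of 0.049, and over all genes tested the median was 0. Array 2 was also the highest of all 6 arrays for 13 of these 20 genes, beside 37.0% of all genes of that brightness. In AA-deficient knockouts the median of array 2 minus array 1 over the 20 genes was -0.007, and in wild type it was -0.044. Over all genes of that brightness these medians were -0.019 and -0.037. The mean over the 10 hepatocyte markers was 2.01 and 2.12 in AA-supplemented arrays 1 and 2. The step was therefore not particular to coagulation genes. Without AA-supplemented array 2 the median difference of the 35 genes was 0.047 between AA-deficient and AA-supplemented knockouts and -0.010 between AA-supplemented knockouts and wild type. Without AA-supplemented array 1 the medians were -0.056 and 0.059.

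Most coagulation genes differed little between the groups. In AA-deficient knockouts F5, which encodes factor V, rose and Serpina10, which encodes the protein Z-dependent protease inhibitor, fell against wild type, and the other 29 genes tested did not pass. These 2 of 31 genes are 6.45%, beside 4.63% of all genes tested that passed in this comparison (limma, Benjamini-Hochberg adjusted p under 0.05). Higher were 1 of 31, beside 3.08% of all genes, and lower 1 of 31, beside 1.55%. At an unadjusted p under 0.05 there were 6 of 31, beside 20.4% of all genes. The share of coagulation genes that passed was thus near that of all genes. Over all genes 679 passed in this comparison, but only 1, Rgn, with wild-type array 1 or 2 left out, so every other call against wild type given below was lost then. Leaving out AA-deficient array 1 gave 140, and leaving out array 2 of that group gave 88.

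Between the knockout groups 0 of 31 passed in limma, beside 0.205% of all genes tested (0.0409% of them higher, 0.164% lower). At an unadjusted p under 0.05 there were 4 (F3, F8, Serpina10 and Tfpi), beside 9.92% of all genes. In AA-supplemented knockouts against wild type 0 of 31 passed, beside 0.00682% of all genes, and 2 had an unadjusted p under 0.05 (F5 and Ggcx), beside 10.6%. The differences of all 35 genes had a median of -0.0066 between AA-deficient and AA-supplemented knockouts. Against wild type the median was 0.026 in AA-deficient knockouts and 0.028 in AA-supplemented knockouts. After quantile normalisation these were 0.0139 and 0.00517, and after cyclic loess normalisation 0.0156 and 0.00582. Over all genes tested, as deposited, the medians were 3.15e-05 between the knockout groups, and -0.0034 and -0.0017 for AA-deficient and AA-supplemented knockouts against wild type. Absolute differences had medians of 0.042, 0.044 and 0.040 for the coagulation genes, and 0.041, 0.057 and 0.044 for all genes tested. Each group enters 2 of the 3 comparisons, so these are not independent of each other.

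**Figure D1:**
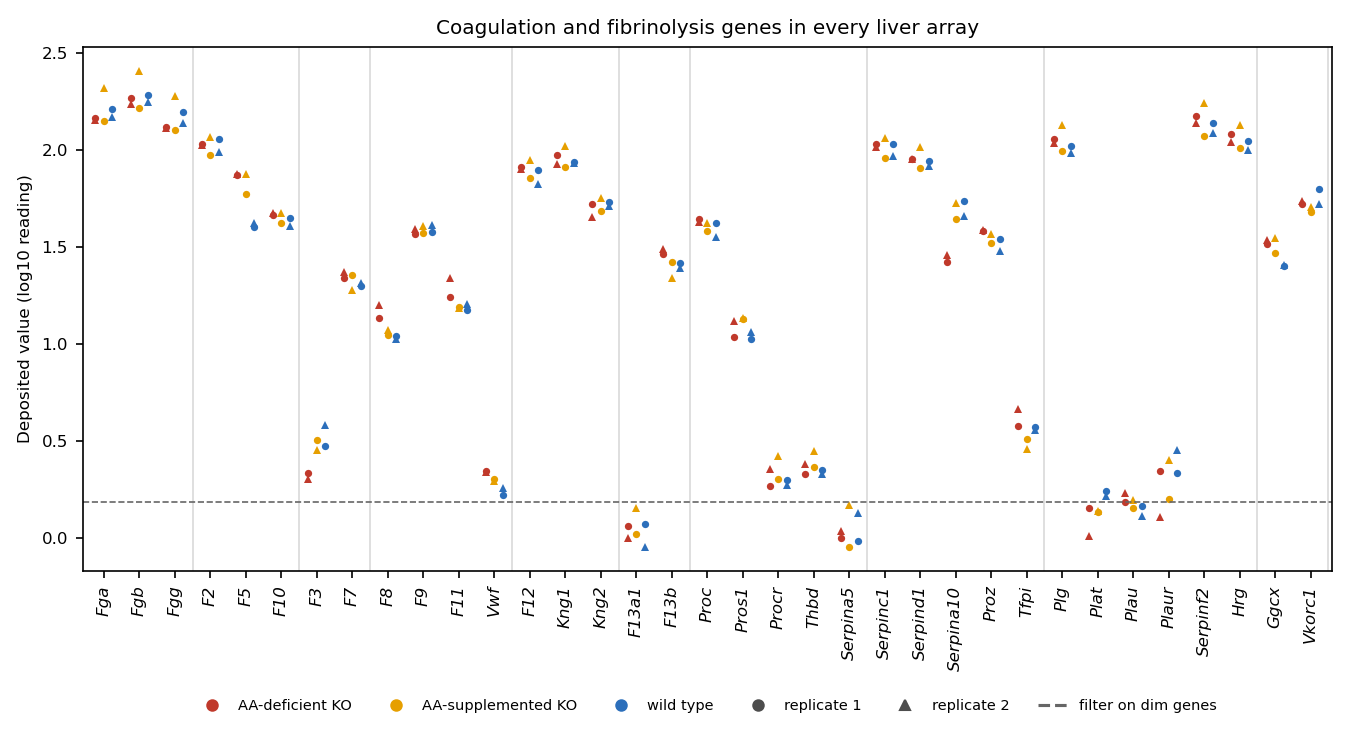
Deposited values (vertical axis, log10 reading) of the 35 coagulation and fibrinolysis genes in each of the 6 arrays, ordered by role, with vertical lines between roles. Circles are replicate 1 and triangles replicate 2, and the dashed line is the filter on dim genes at 0.185. F5 stands apart in wild type and Serpina10 in AA-deficient knockouts, while most other genes lie close together.

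F5 had 1.87 and 1.88 in AA-deficient knockouts and 1.77 and 1.88 in AA-supplemented knockouts, against 1.60 and 1.62 in wild type. All 4 knockout arrays were above both wild-type arrays, and the knockout groups overlapped. Against wild type F5 rose by 0.262 in AA-deficient knockouts (SE 0.0467, 1.83-fold, adjusted p = 0.0280 in limma). The AA-supplemented group was 0.213 above wild type (SE 0.0467, 1.63-fold, adjusted p = 0.194), which did not pass. Between AA-deficient and AA-supplemented knockouts the difference was 0.049 (adjusted p = 0.838), with a 95% interval of -0.059 to 0.157. The rise in AA-deficient knockouts was 0.252 to 0.272 when any single array of AA-deficient knockouts or of wild type was left out, with adjusted p = 0.109 and 0.152 without AA-deficient array 1 and 2, and 0.199 and 0.140 without wild-type array 1 and 2. With no filter on dim genes its adjusted p was 0.0668.

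Factor V is carried out of the endoplasmic reticulum, together with factor VIII, by the receptor of Lman1 and Mcfd2. Mcfd2 was at 1.10 in both AA-deficient knockout arrays and at 1.20 in both AA-supplemented knockout arrays, against 1.35 and 1.29 in wild type. The 3 groups did not overlap, and wild type was the highest. Mcfd2 fell by 0.222 in AA-deficient knockouts against wild type (SE 0.0408, 1.67-fold lower, adjusted p = 0.0302 in limma), which did not pass without AA-deficient array 1 or 2 (adjusted p = 0.145 and 0.172). The AA-supplemented group differed from wild type by -0.124 (SE 0.0408, adjusted p = 0.369), and the AA-deficient group from the AA-supplemented group by -0.098 (adjusted p = 0.480). Lman1, its partner, named after its values were seen, was at 1.92 and 1.87 in AA-deficient knockouts and 1.91 and 1.98 in AA-supplemented knockouts, against 1.90 and 1.87 in wild type, with an adjusted p = 0.928 for AA-deficient knockouts against wild type.

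Serpina10 encodes a serpin that, bound to protein Z, inhibits activated factor X. It had 1.42 and 1.46 in AA-deficient knockouts and 1.64 and 1.73 in AA-supplemented knockouts, against 1.74 and 1.66 in wild type. Both AA-deficient arrays were below every other array, and AA-supplemented knockouts overlapped with wild type. Serpina10 fell by 0.256 in AA-deficient knockouts against wild type (SE 0.0491, 1.80-fold lower, adjusted p = 0.0332 in limma). Against AA-supplemented knockouts the difference was -0.242 (SE 0.0491, 1.75-fold lower, adjusted p = 0.139), which passed when the prior spread was fitted with a trend on the mean value (adjusted p = 0.0283). Between AA-supplemented knockouts and wild type it was -0.014 (adjusted p = 0.951), with a 95% interval of -0.127 to 0.100. Against wild type the fall was 0.216 to 0.295 in size with single arrays left out, with adjusted p = 0.151 and 0.139 without AA-deficient array 1 and 2, and 0.231 and 0.118 without wild-type array 1 and 2. With no filter on dim genes its adjusted p was 0.0752.

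Proz, which encodes protein Z, the partner of Serpina10, was at 1.58 and 1.59 in AA-deficient knockouts and 1.52 and 1.57 in AA-supplemented knockouts, against 1.54 and 1.48 in wild type. Its difference between AA-deficient knockouts and wild type was 0.074 (SE 0.0428, adjusted p = 0.388), of opposite sign to that of Serpina10. Serpinc1 (antithrombin) and Serpind1 (heparin cofactor II), the other serpins of thrombin and factor X, differed from wild type by 0.024 and 0.022 in AA-deficient knockouts (adjusted p = 0.842 and 0.849). Their 95% intervals were -0.0898 to 0.138 and -0.0866 to 0.131. After quantile or cyclic loess normalisation both differences were just below 0.

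**Figure D2:**
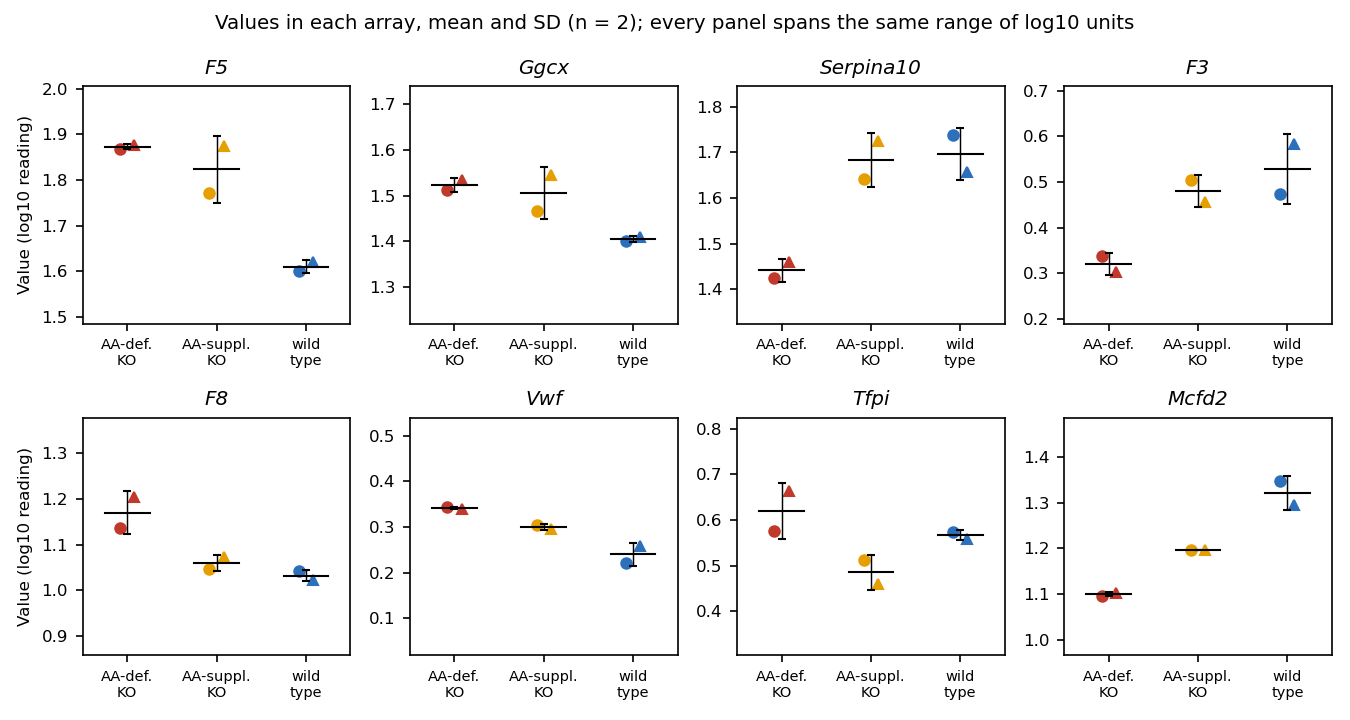
Values in each array (vertical axes, log10 reading) of F5, Ggcx, Serpina10, F3, F8, Vwf, Tfpi and Mcfd2 in AA-deficient knockouts, AA-supplemented knockouts and wild type. Circles are replicate 1, triangles replicate 2, horizontal lines the means and bars the SD (n = 2). All panels span the same number of log10 units, and wild type stands lowest for F5 and Ggcx and highest for Mcfd2, while AA-deficient knockouts stand lowest for Serpina10 and F3.

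F3 encodes tissue factor, the membrane protein that starts clotting when blood meets it. It had 0.338 and 0.303 in AA-deficient knockouts and 0.505 and 0.456 in AA-supplemented knockouts, against 0.474 and 0.582 in wild type. Both AA-deficient arrays were below the other 4. The difference from wild type was -0.207 in AA-deficient knockouts (SE 0.0495, 1.61-fold lower) and did not pass (adjusted p = 0.0569 in limma). It passed with only the arrays of these groups in the fit (adjusted p = 0.0496) and with a stricter filter, at the 50th percentile (adjusted p = 0.0310). A trend and robust fit also passed it (adjusted p = 0.0414). It was further from passing with no filter on dim genes (adjusted p = 0.113) and with the replicate number as a block (adjusted p = 0.123). With single arrays of these groups left out, the difference ran from -0.261 to -0.153. Against AA-supplemented knockouts the difference was -0.160 (adjusted p = 0.308). F7, which encodes the protease that tissue factor binds, differed between AA-deficient knockouts and wild type by 0.047 (adjusted p = 0.619).

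The fibrinogen chains are encoded by Fga, Fgb and Fgg, which lie next to each other on chromosome 3. They are acute phase genes, induced in hepatocytes by interleukin signalling through STAT3. C/EBP and HNF1 factors act at the promoters of Fga and Fgb. Fga had 2.16 and 2.16 in AA-deficient knockouts and 2.15 and 2.32 in AA-supplemented knockouts, against 2.21 and 2.17 in wild type. Fgb had 2.27 and 2.24 in AA-deficient knockouts and 2.22 and 2.41 in AA-supplemented knockouts, against 2.28 and 2.25 in wild type. Fgg had 2.12 and 2.11 in AA-deficient knockouts and 2.10 and 2.28 in AA-supplemented knockouts, against 2.19 and 2.13 in wild type. For all 3 chains AA-supplemented array 2 was the highest array and AA-supplemented array 1 the lowest.

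None of the 3 chains passed in any comparison. Between AA-deficient and AA-supplemented knockouts the differences were -0.076 for Fga, -0.060 for Fgb and -0.074 for Fgg (adjusted p = 0.786, 0.853 and 0.798 in limma). Without AA-supplemented array 2 they were 0.0098, 0.035 and 0.014, and without AA-supplemented array 1 -0.162, -0.154 and -0.161. Against wild type the differences in AA-deficient knockouts were -0.029, -0.011 and -0.048, with 95% intervals of -0.166 to 0.107, -0.155 to 0.133 and -0.188 to 0.0913. In AA-supplemented knockouts they were 0.046, 0.049 and 0.025 above wild type, but Fga and Fgg were below it after quantile normalisation (-0.0086 and -0.027), as Fgg was after cyclic loess normalisation (-0.0079).

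The letters just before the RNA start of the fibrinogen genes are shown because the values of these neighbours ran alike across the arrays. Those of F5 are shown because it was the coagulation gene that rose. The step from AA-supplemented array 1 to array 2 was shared by all 20 bright coagulation genes, so it was not particular to these neighbours. A further Fga probe set went the other way there, with 1.59 and 1.49. The sequences are the 250 bases upstream of the start in RefSeq (GRCm38.p6), 5' to 3', and capitals mark matches on either strand to an HNF1 half-site (GTTAAT), an HNF4 core (CAAAGTCCA), a C/EBP consensus (TTNNGNAA) or a STAT consensus (TTCNNNGAA).
F5 upstream (chr1:164151585-164151834, plus strand): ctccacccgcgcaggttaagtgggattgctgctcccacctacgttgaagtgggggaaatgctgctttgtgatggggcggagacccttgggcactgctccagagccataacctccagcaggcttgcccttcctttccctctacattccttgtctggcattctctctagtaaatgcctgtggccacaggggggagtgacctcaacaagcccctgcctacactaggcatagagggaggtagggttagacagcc
Fga upstream (chr3:83025903-83026152, plus strand): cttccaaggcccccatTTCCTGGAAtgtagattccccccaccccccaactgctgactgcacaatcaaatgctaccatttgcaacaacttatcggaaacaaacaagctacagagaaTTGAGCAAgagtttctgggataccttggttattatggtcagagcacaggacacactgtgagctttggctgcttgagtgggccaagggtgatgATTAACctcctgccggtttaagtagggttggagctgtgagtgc
Fgb upstream (chr3:83049864-83050113, minus strand): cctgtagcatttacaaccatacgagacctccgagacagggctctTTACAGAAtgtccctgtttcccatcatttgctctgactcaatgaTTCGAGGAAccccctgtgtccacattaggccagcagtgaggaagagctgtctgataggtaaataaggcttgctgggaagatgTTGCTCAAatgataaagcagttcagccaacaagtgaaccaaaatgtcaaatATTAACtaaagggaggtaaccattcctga
Fgg upstream (chr3:83007474-83007723, plus strand): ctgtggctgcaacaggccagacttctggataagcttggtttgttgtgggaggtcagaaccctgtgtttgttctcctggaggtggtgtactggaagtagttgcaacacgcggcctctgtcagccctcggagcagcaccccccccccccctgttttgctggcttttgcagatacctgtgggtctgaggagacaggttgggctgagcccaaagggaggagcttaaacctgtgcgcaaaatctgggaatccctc

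Counted from -1 at the base before the start, Fga held an HNF1 half-site at -43 to -38, a C/EBP match at -135 to -128 and a STAT match at -234 to -226. Fgb held an HNF1 half-site at -29 to -24, C/EBP matches at -206 to -199 and -80 to -73 and a STAT match at -162 to -154. No match to the 4 motifs lay in the windows of Fgg and F5. Of 27 coagulation genes with an entry, 4 held the HNF1 half-site, 15 the C/EBP consensus, 4 the STAT consensus and 0 the HNF4 core. Among all 32851 promoter entries the shares were 6.43%, 36.8%, 7.02% and 0.384%. A coagulation gene was counted if any of its entries matched, while these shares are per entry, so the counts and shares are not strictly alike. Such matches are letters only and are not evidence of binding.

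A list of further acute phase genes was set beside the fibrinogen chains. Of 24 with a value, all 24 were lower in AA-deficient knockouts than in supplemented ones (median -0.212), and 1, Steap4, passed in limma. Against wild type 21 of the 24 were lower in AA-deficient knockouts, with a median of -0.125, and 3 fell: Lcn2 was 4.89-fold, Saa2 4.78-fold and Steap4 3.17-fold lower (adjusted p = 0.0316, 0.0404 and 0.0203). Over all genes tested 7328 of 14662 were lower between the knockout groups and 7548 against wild type. Those that passed as lower were 0.164% and 1.55%. The difference of Saa2 was -0.679, and it was -0.429 without AA-deficient array 1 and -0.929 without array 2 of that group. Lcn2 did not pass without AA-deficient array 1 or 2 (0.0969 and 0.0588), nor Steap4 without array 2 of that group (0.0883). The call of Steap4 between the knockout groups was lost without AA-deficient array 1 or 2 (0.0596 and 0.101), AA-supplemented array 2 (0.0743) or either wild-type array (0.140), and after cyclic loess normalisation (0.0551). In AA-supplemented knockouts 21 of 24 were higher than in wild type, beside 7197 of 14662 genes tested, with a median of 0.079, and 0 passed. The mean over these genes was 1.44 and 1.53 in AA-deficient knockouts and 1.72 and 1.88 in AA-supplemented knockouts, against 1.67 and 1.72 in wild type. AA-deficient knockouts were below every other array in this mean, as they were for Serpina10, and the part of the acute phase in the result for Serpina10 was not tested. The difference between the fibrinogen chains and the acute phase list was not tested either.

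**Figure D3:**
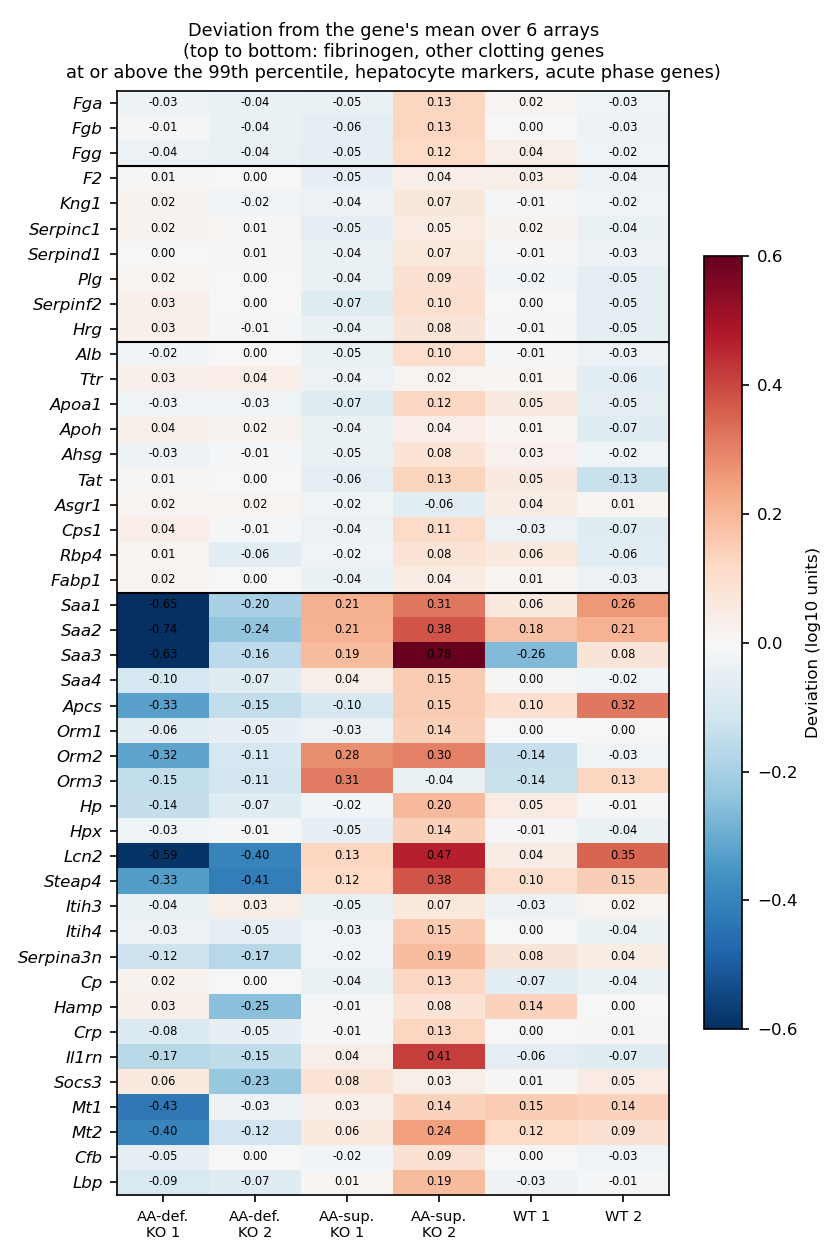
Deviation of each gene from its own mean over the 6 arrays (colour and printed value, log10 units) for the fibrinogen chains, the other coagulation genes at or above the 99th percentile of mean value, hepatocyte markers and acute phase genes, in rows, and the 6 arrays, in columns. AA-supplemented array 2 is above the mean for every fibrinogen chain and every other coagulation gene shown, and both AA-deficient arrays are below the other 4 for Saa2, Lcn2 and Steap4.

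The remaining genes of thrombin formation differed little from wild type. F2 (prothrombin) was at 2.03 and 2.03 in AA-deficient knockouts and 1.98 and 2.06 in AA-supplemented knockouts, against 2.06 and 1.99 in wild type, and the groups overlapped. F10 (factor X) differed from wild type by 0.041 in AA-deficient knockouts (adjusted p = 0.659) and F9 (factor IX) by -0.014 (adjusted p = 0.893), with a 95% interval of -0.109 to 0.081. F7, F10 and Proz are neighbours on chromosome 8, and each was above wild type without overlap in AA-deficient knockouts, though 0 of the 3 passed. Groups did not overlap for 18 of the 31 coagulation genes in this comparison (58.1%), beside 54.5% of all genes. AA-deficient knockouts were the higher for 14 of the 31 (45.2%), beside 27.6% of all genes. They were the lower for 4 of the 31 (12.9%), beside 26.9%. Between AA-deficient and AA-supplemented knockouts groups did not overlap for 11 of 31, beside 37.3% of all genes. AA-deficient knockouts were the higher for 8 of the 31 (25.8%), beside 19.8%, and the lower for 3 of the 31 (9.68%), beside 17.5%. Between AA-supplemented knockouts and wild type groups did not overlap for 9 of 31, beside 38.6%. AA-supplemented knockouts were the higher for 7 of the 31 (22.6%), beside 19.8%, and the lower for 2 of the 31 (6.45%), beside 18.8%.

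F11 encodes factor XI, which thrombin activates to amplify clotting. It had 1.24 and 1.34 in AA-deficient knockouts and 1.19 and 1.19 in AA-supplemented knockouts, against 1.18 and 1.20 in wild type. Both AA-deficient arrays were above the other 4. The difference was 0.102 from AA-supplemented knockouts (SE 0.0466, adjusted p = 0.539) and 0.101 from wild type (adjusted p = 0.279), and without AA-deficient array 2 these differences were 0.052 and 0.051. F13b, which encodes the carrier subunit of the fibrin cross-linking factor XIII, had 1.46 and 1.49 in AA-deficient knockouts and 1.42 and 1.34 in AA-supplemented knockouts, against 1.42 and 1.39 in wild type. It was 0.096 above AA-supplemented knockouts (adjusted p = 0.547) and 0.072 above wild type (adjusted p = 0.425).

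F12, Kng1 and Kng2 belong to the contact and kinin system, in which factor XII activates prekallikrein and kininogen releases bradykinin. Their differences between AA-deficient knockouts and wild type were 0.048, 0.016 and -0.032 (adjusted p = 0.650, 0.896 and 0.758). Kng1 and Kng2 are close copies that lie side by side on chromosome 16, next to Hrg, so probes may not separate them fully. Kng1 and Kng2 overlapped between the groups in all 3 comparisons.

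F8, Vwf, Tfpi, Thbd and Procr are genes of endothelial cells. F8 (factor VIII) had 1.14 and 1.20 in AA-deficient knockouts and 1.05 and 1.07 in AA-supplemented knockouts, against 1.04 and 1.02 in wild type. The 3 groups did not overlap, and AA-deficient knockouts were the highest. The difference was 0.137 from wild type (SE 0.0428, 1.37-fold, adjusted p = 0.118) and 0.110 from AA-supplemented knockouts (SE 0.0428, adjusted p = 0.435). The difference from wild type passed with a trend on the mean value (adjusted p = 0.0360) or a trend and a robust fit (adjusted p = 0.0329). Under these options 1271 and 1312 of all genes passed, beside 679 in the main fit. With no filter on dim genes its adjusted p was 0.2025, and with the replicate number as a block 0.207. Without AA-deficient array 1 or 2 the difference was 0.171 or 0.104.

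Vwf, which encodes von Willebrand factor, the carrier of factor VIII, had 0.344 and 0.340 in AA-deficient knockouts and 0.304 and 0.296 in AA-supplemented knockouts, against 0.222 and 0.258 in wild type. The 3 groups again did not overlap, as for F8, Mcfd2 and Tfpi, but the order of the groups was not the same. AA-deficient knockouts were lowest for Mcfd2, and wild type lay between the knockout groups for Tfpi. The share of all genes with 3 separate groups was not counted, so nothing is read from this separation. The Vwf mean of 0.294 was not far above the filter at 0.185. The difference of AA-deficient knockouts from wild type was 0.102 (SE 0.0396, adjusted p = 0.195). Tfpi, the inhibitor of the tissue factor complex, had 0.576 and 0.663 in AA-deficient knockouts and 0.513 and 0.459 in AA-supplemented knockouts, against 0.574 and 0.559 in wild type. It was 0.134 above AA-supplemented knockouts (SE 0.0466, 1.36-fold, adjusted p = 0.377) and 0.053 above wild type (adjusted p = 0.594), and AA-supplemented knockouts were the lowest group.

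The receptors of the protein C system are also endothelial. Thbd (thrombomodulin) and Procr (endothelial protein C receptor) differed from AA-supplemented knockouts by -0.051 and -0.053 in AA-deficient knockouts (adjusted p = 0.821 and 0.847) and from wild type by 0.015 and 0.026 (adjusted p = 0.897 and 0.843). Endothelial markers are given beside F8, Vwf and Tfpi. Beside 7334 of 14662 genes tested, 11 of 13 were higher in AA-deficient knockouts than in supplemented ones (median 0.058). Beside 7113 of 14662 genes tested, 10 of the 13 markers were above wild type (median 0.073). Of these, Stab2, a scavenger receptor of sinusoidal endothelium, rose by 0.237 against wild type (adjusted p = 0.0320), and did not pass without AA-deficient array 1 or 2 (0.123 and 0.186). The mean over the 13 markers was 1.01 and 1.05 in AA-deficient knockouts and 0.985 and 0.960 in AA-supplemented knockouts, against 0.967 and 0.974 in wild type, and the markers' own means ran from 0.554 to 1.80. In whole liver, a change in the number of cells of a type and a change in RNA per cell cannot be told apart. The part of endothelial cells in these differences was not tested.

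Proc (protein C) and Pros1 (protein S) are the secreted anticoagulants that act on activated factors V and VIII. Pros1 had 1.04 and 1.12 in AA-deficient knockouts and 1.13 and 1.13 in AA-supplemented knockouts, against 1.03 and 1.06 in wild type. AA-supplemented knockouts were the highest group, 0.084 above wild type (SE 0.0442, adjusted p = 0.557), and AA-deficient knockouts were 0.053 below them (adjusted p = 0.802). Proc differed from wild type by 0.049 in AA-deficient knockouts (adjusted p = 0.6003) and by 0.015 in AA-supplemented knockouts (adjusted p = 0.939).

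Genes of fibrinolysis did not pass in any comparison. Plg, which encodes plasminogen, had 2.05 and 2.04 in AA-deficient knockouts and 1.995 and 2.13 in AA-supplemented knockouts, against 2.02 and 1.98 in wild type, a difference between AA-deficient knockouts and wild type of 0.043 (adjusted p = 0.710). Serpinf2, the plasmin inhibitor, and Hrg, a plasma protein that binds plasminogen, differed from wild type by 0.044 and 0.041 in AA-deficient knockouts (adjusted p = 0.748 and 0.718). Plaur, the urokinase receptor, had the widest spread of the 31 genes, with 0.344 and 0.107 in AA-deficient knockouts and 0.201 and 0.401 in AA-supplemented knockouts, against 0.337 and 0.454 in wild type. Its SE was 0.092 and its 95% interval against wild type in AA-deficient knockouts -0.383 to 0.043.

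The vitamin K cycle is served by Ggcx, the carboxylase of the clotting factors, and Vkorc1, the reductase that warfarin blocks. Ggcx had 1.51 and 1.54 in AA-deficient knockouts and 1.47 and 1.55 in AA-supplemented knockouts, against 1.40 and 1.41 in wild type. All 4 knockout arrays were above both wild-type arrays. The difference from wild type was 0.119 in AA-deficient knockouts (SE 0.0439, 1.32-fold, adjusted p = 0.175) and 0.102 in AA-supplemented knockouts (SE 0.0439, 1.27-fold, adjusted p = 0.469), so neither passed. Vkorc1 differed from wild type by -0.029 in AA-deficient knockouts (adjusted p = 0.772) and by -0.066 in AA-supplemented knockouts (adjusted p = 0.648).

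**Figure D4:**
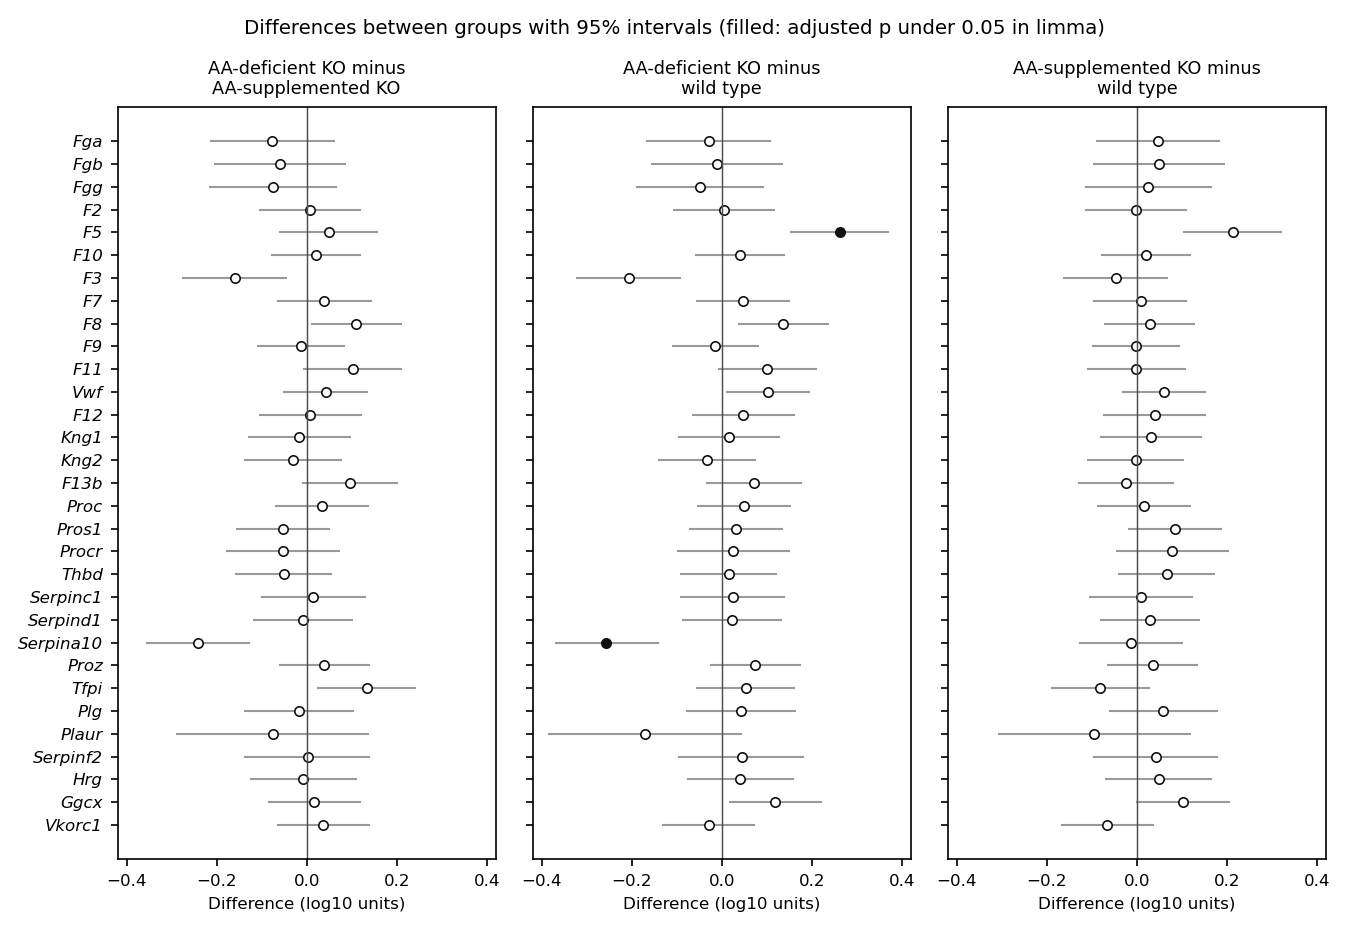
Differences between groups (horizontal axes, log10 units) for the 31 coagulation and fibrinolysis genes tested, in rows ordered by role, with 95% intervals from limma as lines. Filled points passed at an adjusted p under 0.05, which were F5 at 0.262 and Serpina10 at -0.256 in AA-deficient knockouts against wild type.

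Of 37 further genes of coagulation, fibrinolysis and kinins, 31 had a value and 24 were tested. Mcfd2 was the only one that passed, 0 rose and 1 fell in AA-deficient knockouts against wild type, and in the other comparisons 0 of 24 passed in limma. The medians of the 31 differences were -0.013 between AA-deficient and AA-supplemented knockouts, and 0.011 and 0.0072 for AA-deficient and AA-supplemented knockouts against wild type. Among 10 transcription factors known to act on clotting factor genes, Onecut1 (hepatocyte nuclear factor 6) had 1.07 and 0.973 in AA-deficient knockouts and 1.44 and 1.45 in AA-supplemented knockouts, against 1.30 and 1.43 in wild type. It fell by 0.421 against AA-supplemented knockouts (SE 0.0553, 2.63-fold lower, adjusted p = 0.0450 in limma) and by 0.343 against wild type (adjusted p = 0.0208). Between the knockout groups the call was lost with any single array left out (adjusted p = 0.0596 and 0.143 without AA-deficient array 1 and 2, 0.0936 with either wild-type array left out, 0.0753 and 0.154 with AA-supplemented array 1 and 2 left out) and after quantile (0.0854) or cyclic loess normalisation (0.0750). Against wild type it was lost without AA-deficient array 2 (0.115). Nr1i3, the nuclear receptor CAR, rose by 0.260 in AA-deficient knockouts against wild type (adjusted p = 0.0477), and did not pass without AA-deficient array 1 or 2 (0.162 and 0.200) or after quantile (0.0606) or cyclic loess normalisation (0.0538). Hnf4a and Cebpa differed from wild type by 0.035 and -0.091 in AA-deficient knockouts (adjusted p = 0.802 and 0.234 in limma). Cebpa had an unadjusted p of 0.0462 there. In AA-supplemented knockouts against wild type 0 of the 10 passed.

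Among markers of other cells, 0 of 11 tested for macrophages, 0 of 5 for platelets, 0 of 11 for stellate cells, 0 of 3 for bile duct cells and 0 of 4 for neutrophils and lymphocytes passed in any comparison with limma. Macrophage markers had a median of 0.028 between the knockout groups (AA-deficient minus AA-supplemented) and 0.042 between AA-deficient knockouts and wild type. In AA-deficient knockouts 6 of the 11 were above AA-supplemented knockouts and 10 of the 11 above wild type. For platelet markers the medians in the same comparisons were -0.0026 and 0.024, for stellate cell markers 0.031 and 0.037, for bile duct markers 0.012 and -0.055, and for neutrophil and lymphocyte markers -0.029 and -0.068. Hepatocyte markers had medians of -0.030 and 0.017, and 0 of 10 passed. In AA-supplemented knockouts against wild type the medians were 0.026 for macrophage, -0.016 for platelet, -0.019 for stellate, -0.064 for bile duct, -0.041 for neutrophil and lymphocyte, 0.028 for hepatocyte and -0.028 for endothelial markers.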

How the data were processed

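Liver RNA was labelled with biotin for Affymetrix arrays, per the labels' protocols. The authors deposited a table of values per probe set and array, which are read here as log10 because their range of -0.58 to 2.51 would span 1213-fold on that base and far less on a smaller one. Their software, normalisation and log base were not given in the sources used. Without detection calls, background and weak signal could not be separated, and precision is limited by the 6 arrays.

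Of 34760 probe sets, 30765 had values. Of those, 21161 had 1 gene symbol in the platform annotation, 1150 several and 8454 none. Through Entrez identifiers 21079 matched RefSeq (GRCm38.p6), which also gave names, neighbours and upstream sequences. Of the 35 genes, 27 had an upstream sequence.

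All 6 arrays entered a single linear model (R 4.3.3, limma 3.58.1, functions lmFit and eBayes) with 3 residual and 4.89 prior degrees of freedom, two-sided tests and Benjamini-Hochberg adjustment over 14662 genes. In simulated data for AA-deficient knockouts against wild type, with 14662 genes and 200 changed, the recovered share was 3.73% at 1.5-fold, 57% at 2-fold and 97.7% at 4-fold. Changes near 1.5-fold were thus mostly missed in the simulation. Its 200 changed genes were fewer than the 679 that passed in the data, so these shares may not hold for the data.

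The genes and lists were chosen with earlier results of these data known. Values per array are given for genes that passed, the fibrinogen chains, the 8 further genes of smallest unadjusted p and genes set beside them. From the other lists, genes that passed are named, with a few defining ones. Alternatives were the filter, normalisation, probe set choice, eBayes options, arrays in the fit, a replicate block and single arrays left out.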

Additional observations from a re-analysis of the deposited data

How the results depend on the processing

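The number of coagulation genes that passed in AA-deficient knockouts against wild type was 2, and it stayed at 2 or 3, with F5 and Serpina10 among them, after quantile, median or cyclic loess normalisation, with probe sets averaged, with a filter at the 50th percentile, with eBayes with a trend and with only the arrays compared. It was 0 with no filter on dim genes, 4 with a trend and robust fit, and 0 to 3 with single arrays left out (0 without any one array of the groups compared). Between the knockout groups it was 0, and 1 (Serpina10) with a trend, robust or not. In AA-supplemented knockouts against wild type it was 0, and 1 (F5) with a trend and robust fit. With single arrays left out, the median difference ran from -0.0556 to 0.0469 between the knockout groups, and from -0.00999 to 0.0587 in AA-supplemented knockouts against wild type. Over all genes the counts were 30, 679 and 1 in the 3 comparisons (AA-deficient against AA-supplemented knockouts, then each against wild type), and between settings they ran from 0 to 177, from 1 to 1312 and from 1 to 116. Between the knockout groups 6 rose and 24 fell over all genes, and 1 and 11 did after quantile normalisation, 16 and 41 after centring on the median and 0 and 11 after cyclic loess normalisation. In AA-supplemented knockouts against wild type, 0 rose and 1 fell, and 6 and 2 did after centring. Of single coagulation genes, F5 and Serpina10 lost their calls against wild type in AA-deficient knockouts at 6 settings each, F3 and F8 gained one there, Serpina10 gained one between the knockout groups and F5 one in AA-supplemented knockouts, and no called value changed sign. With no filter, the calls of Mcfd2, Onecut1, Nr1i3, Stab2, Lcn2, Saa2 and Steap4 were also lost. Those of Lcn2 and Saa2 were lost with a trend and robust fit (adjusted p = 0.137 and 0.136). The cause of these changes was not tested.

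Replicate numbers as given did not pair the arrays across all groups. The correlation of deviations of same-numbered arrays was 0.358 between AA-deficient knockouts and wild type. It was -0.369 between the knockout groups and -0.284 between AA-supplemented knockouts and wild type. Exchanging the AA-supplemented numbers would reverse the sign of both negative values, since the deviations within a group mirror each other. All the correlations would then be positive, but that exchange was picked after the signs were seen. No pairing of the arrays can therefore be read from it. The block used next kept the numbers as given, and a block with that exchange was not run. With the replicate number as a block, 0 coagulation genes passed in any comparison, and 4, 163 and 3 genes did over all genes. F5 and Serpina10 then had adjusted p = 0.0621 and 0.0817 in AA-deficient knockouts against wild type, and Mcfd2, Onecut1, Nr1i3 and Stab2 had 0.0752, 0.0586, 0.0974 and 0.0716. Between the knockout groups Onecut1 and Steap4 had 0.124 and 0.0906. Values below the filter could not be tested, and small changes of bright or dim probe sets are limited by signal range, which is not given here.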

Other observations

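Values outside the comparisons concern probe sets that the choice of 1 symbol and of the highest mean left aside. The probe set shared by Klkb1 (prekallikrein) and Cyp4v3 had 1.87 and 1.87 in AA-deficient knockouts and 1.81 and 1.87 in AA-supplemented knockouts, against 1.77 and 1.77 in wild type, and its signal cannot be assigned to either gene. Klkb1 lies next to F11 on chromosome 8. A further Fga probe set had 1.49 and 1.51 in AA-deficient knockouts and 1.59 and 1.49 in AA-supplemented knockouts, against 1.45 and 1.497 in wild type. On this probe set AA-supplemented array 1 was the highest array, whereas it was the lowest on the Fga probe set used above.

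The genes below the filter were at values where background cannot be told from signal. Plat (tissue plasminogen activator) had 0.156 and 0.013 in AA-deficient knockouts and 0.137 and 0.142 in AA-supplemented knockouts, against 0.241 and 0.216 in wild type, so that both wild-type arrays were the highest. Plau (urokinase) had 0.184 and 0.232 in AA-deficient knockouts and 0.154 and 0.195 in AA-supplemented knockouts, against 0.167 and 0.116 in wild type. F13a1, the catalytic subunit of factor XIII, and Serpina5, the protein C inhibitor, had means over the 6 arrays of 0.044 and 0.046. Tfpi2, a relative of Tfpi, had 1.26 and 1.22 in AA-deficient knockouts and 1.08 and 1.03 in AA-supplemented knockouts, against 1.11 and 1.07 in wild type. It was 0.185 above AA-supplemented knockouts (SE 0.042, adjusted p = 0.179 in limma) and 0.152 above wild type (adjusted p = 0.0856), and was named after its values were seen.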
